A study of Mus musculus with 10 samples.

Results

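Histone genes were followed in sorted plasma cells from mouse spleen, IgG1 cells against IgM cells, with 5 RNA-seq libraries of each. The 80 members, of 47719 gene identifiers measured, are the protein-coding genes of mouse build GRCm38 whose symbols start with Hist1, Hist2, Hist3, Hist4, H2af, H3f3 or H1f in the GENCODE M21 annotation. Of these, 65 with Hist symbols are called replication-dependent histone genes below, and 15 with H2af, H3f3 or H1f symbols are called variant histone genes. Both groups of cells share every allele and treatment. Among the alleles of the donor B cells was S1PR2-CreERT2, a Cre recombinase that tamoxifen activates and that is driven by S1pr2, a receptor gene active in germinal centres. The cells also carried Ai14, a reporter that switches on the red protein tdTomato once Cre has acted, and B1-8germ, a germline heavy chain gene for antibodies to the hapten NP. Wild-type mice that had received these cells were immunized with NP-CGG in alum on day 0 and given tamoxifen on days 5 and 6. TdTomato-positive donor plasma cells of either class were sorted on day 10. The mark follows Cre activity at the time of tamoxifen, the hosts kept their own B cells, and the labels do not say whether the libraries came from separate mice, so each p-value measures only the spread between these libraries.

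Histones package DNA: a pair each of H2A, H2B, H3 and H4 forms the core that DNA winds around, and H1 binds the linker between cores. Replication-dependent genes lie in clusters, mostly lack introns and are transcribed mainly in S phase, when new DNA has to be packaged. Their mRNAs end in a conserved stem-loop bound by SLBP, the stem-loop binding protein, in place of a poly(A) tail. Variant genes such as H2afz (H2A.Z) and H3f3a and H3f3b (both H3.3) have introns and poly(A) tails as a rule and are expressed outside S phase as well. Of the 15 variant members here, however, 7 have a single exon, H2afx and H1f0 among them. Plasma cells arise from dividing B cells, and newly formed ones can still be cycling.

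Levels are in FPKM, in which the fragments of a gene are divided by its transcript length and by those mapped in its library. Depth, inferred from the smallest steps in FPKM, was 26510000 to 38400000 fragments in IgG1 libraries and 26980000 to 31250000 in IgM libraries, and 13286 to 13961 genes were above 0 in IgG1 libraries against 15121 to 15800 in IgM libraries. All 8 plasma cell markers were present in both groups. Their sum ran from 30210 to 33876 FPKM in IgG1 libraries and from 47339 to 52649 FPKM in IgM libraries, most of it Jchain. The B cell marker Ms4a1 was at 35.4 to 51.2 FPKM in IgG1 libraries against 53.7 to 76.4 FPKM in IgM libraries, and Pax5 was at most 0.335 FPKM in any library. The 4 macrophage or monocyte markers summed to 11.6 to 17.2 FPKM in IgG1 libraries against 30.2 to 36.2 FPKM in IgM libraries. Most of this was Cd68. Lyz2 ran from 0.789 to 2.36 FPKM in IgG1 libraries and upward of 0.214 FPKM in IgM libraries, with overlapping groups, and Csf1r and Adgre1 stayed at or below 1.07 FPKM in every library. Of the other lists, the 4 neutrophil markers were all listed at 0 in every library. Summed NK cell markers were at 0 in IgG1 libraries and at most 0.398 FPKM in IgM libraries, with Ncr1 at 0 throughout. Summed T cell markers reached 3.10 FPKM in IgG1 libraries, nearly all of it Cd4, and 1.95 FPKM in IgM libraries. Cd3e, Cd3d and Cd3g each stayed at or below 0.0487 FPKM in IgG1 libraries. In IgM libraries Cd4 reached 0.726, Cd3e 0.0887, Cd3d 0.947 and Cd3g 1.22 FPKM. Summed erythroid markers reached 3.17 FPKM in IgG1 libraries and 4.78 FPKM in IgM libraries. Dendritic cell markers summed to 1.79 to 3.61 FPKM in IgG1 libraries against 2.44 to 3.11 FPKM in IgM libraries, mostly Flt3, with Itgax at 0. Stromal and endothelial markers summed to 4.63 to 7.77 FPKM in IgG1 libraries against 4.69 to 6.96 FPKM in IgM libraries, mostly Pecam1, with Col1a1 at 0. The part of depth or of these other cell types in the histone differences was not tested.

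**Figure D1:**
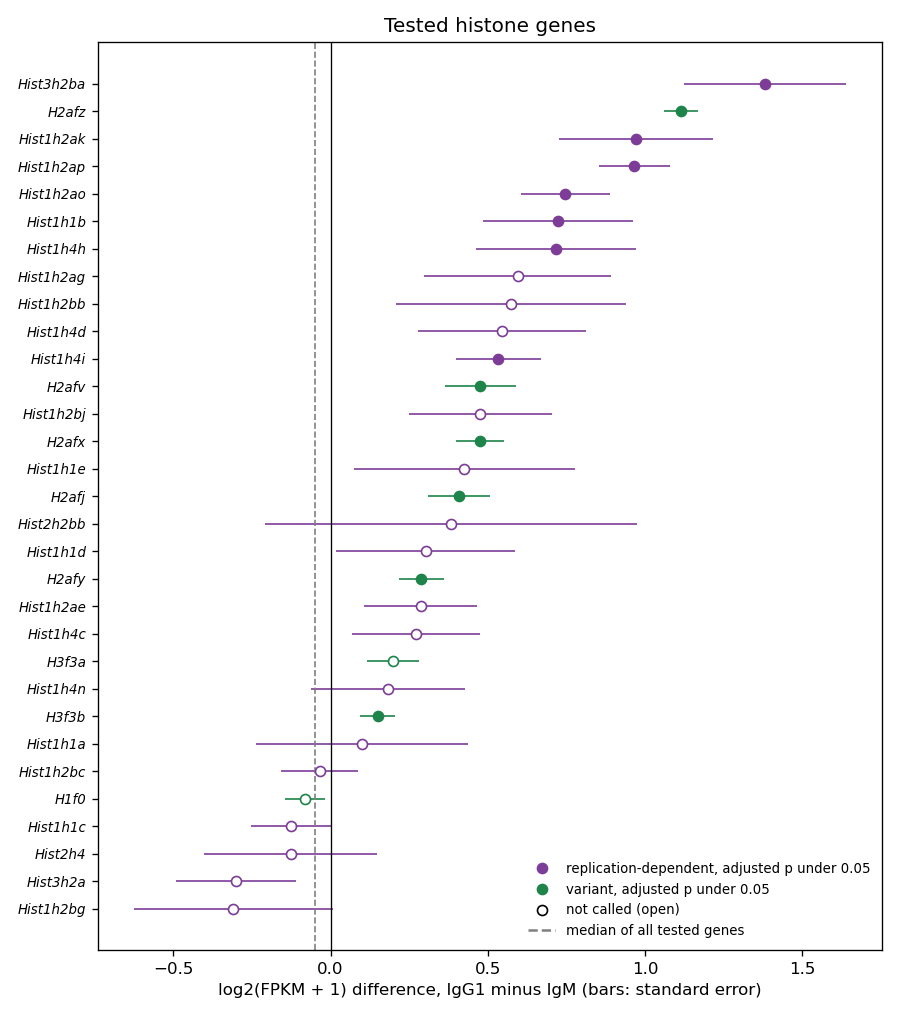
Log2(FPKM + 1) difference, IgG1 minus IgM, with its standard error, for each of the 31 tested histone genes. Of these, 25 lie above 0, and all 13 filled points, which passed the test, lie above both 0 and the dashed line, the median of -0.05 over all 9900 tested genes.

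Histone genes that differed between the classes were all higher in IgG1 cells. Of the 31 members that could be tested, 13 were higher and 0 lower in IgG1 cells, among them the histone H2A variant genes H2afz, at 2.17 times the IgM level, and H2afx, and the replication-dependent gene Hist1h2ap, at 1.96 times. Of all 9900 genes tested, 38.3% were called, 18.1% higher and 20.2% lower. The members' median log2 difference was 0.41, against -0.05 over all tested genes. The split over all genes depends on the scaling: 22% were called higher and 15.3% lower with quantile normalization, and 21.8% higher and 13.4% lower with trends of transcript length and GC content removed. These settings moved the median of all genes by 0.11 and 0.10, and no member was called lower under either. Tested genes had a mean of at least 1 FPKM over the 10 libraries, the test was limma on log2(FPKM + 1), and a call is a Benjamini-Hochberg adjusted p under 0.05 over all tested genes. No member was lower at an unadjusted p under 0.05 either. In bulk samples such as these, fewer cells of a type or phase and less RNA per cell cannot be told apart. Differences are given as IgG1 minus IgM, and adding 1 makes those of low genes smaller.

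The filter on low values removed most replication-dependent genes. It left 23 of 65 replication-dependent and 8 of 15 variant members, and 29 of these 31 had a mean of at least 1 FPKM in both groups. The exceptions were Hist1h2bb, which reached it in IgG1 cells alone, and Hist2h4, which did so in IgM cells alone, and neither was called. Among the 49 untested members the highest mean was 0.994 FPKM and the highest single value 2.997 FPKM. Of the untested members, 5 were listed at 0 in every library: Hist1h1t, H1fnt, H2afb1, H2afb2 and H2afb3. Of the called members, 10 had no overlap between the groups, all with the higher values in IgG1 libraries. For comparison, 26.3% of all tested genes had no overlap, 13.1% on that side and 13.3% on the other.

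**Figure D2:**
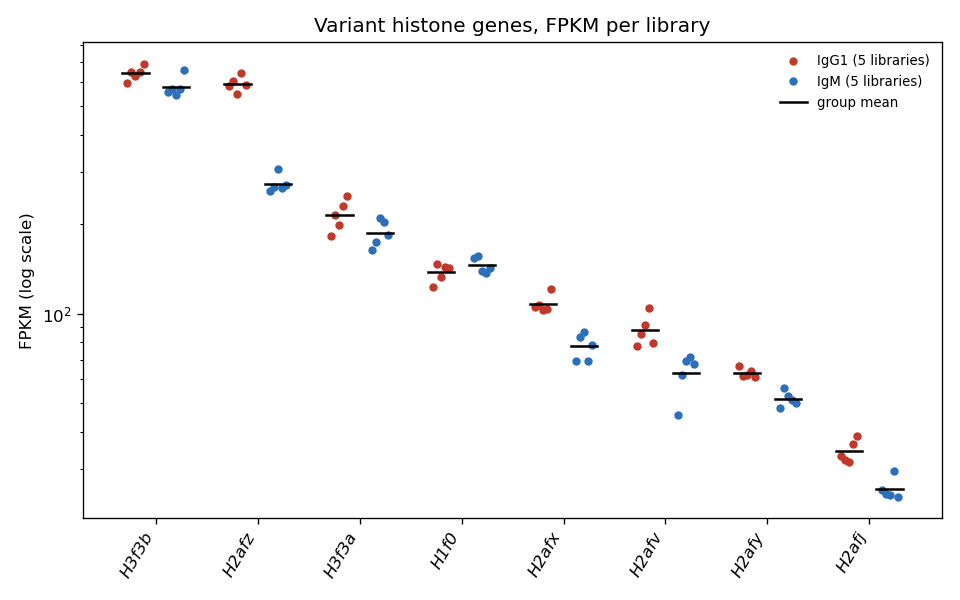
FPKM of the 8 tested variant histone genes on a log axis, 1 point per library, IgG1 left of IgM, with group means as black bars. The groups lie apart for H2afz, H2afx, H2afv, H2afy and H2afj and overlap for H3f3b, H3f3a and H1f0.

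Among the variants, every tested H2A gene was called higher in IgG1 cells, 5 of 5, beside 18.1% of all tested genes. H2afz (chr3:137864487-137866922, plus strand) encodes H2A.Z, which replaces H2A in nucleosomes near promoters. It was measured at 583, 606, 549, 644 and 589 FPKM in IgG1 libraries 1 to 5, against 259, 267, 307, 265 and 271 FPKM in IgM libraries 1 to 5. Every IgG1 value was far above every IgM value, with means of 594 ± 34.8 FPKM in IgG1 cells and 274 ± 19.2 FPKM in IgM cells (n = 5 each, ± SD, as throughout) and a log2 difference of 1.12 (SE 0.05, adjusted p = 1.04e-10). Of the 50-base windows of its longest coding transcript, the model used for every member, 69.6% also occur in other genes, 60.8% in Tmcc1. The authors' assignment of reads can therefore affect this level. H2afv (chr11:6427229-6444443, minus strand), the second gene for H2A.Z, stood lower, at 77.9, 85.5, 91.6, 104 and 79.4 FPKM in IgG1 libraries 1 to 5, against 45.7, 62.1, 69.4, 71.4 and 67.4 FPKM in IgM libraries 1 to 5. None of its windows of 50 bases occurs in another gene, and its groups did not overlap either (log2 difference 0.48, SE 0.11, adjusted p = 0.00307). Added together, these genes came to 682 ± 41.5 FPKM in IgG1 libraries and 337 ± 26.0 FPKM in IgM libraries, 2.02 times as much. The level of H2afz relative to H2afv, a ratio of FPKM values, was 6.83 ± 0.704 in IgG1 libraries and 4.43 ± 0.744 in IgM libraries, without overlap.

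H2afx (chr9:44334694-44336077, plus strand) encodes H2A.X, which is phosphorylated around DNA breaks. Its values were 105, 107, 103, 104 and 121 FPKM in IgG1 libraries 1 to 5, against 69.3, 83.5, 86.5, 69.3 and 78.6 FPKM in IgM libraries 1 to 5. The groups did not overlap (log2 difference 0.48, SE 0.08, adjusted p = 9.51e-05). H2afy (chr13:56073619-56136361, minus strand) encodes macroH2A1, a variant with a large extra domain that is found on silent chromatin. Its 10 values spread little, with 66.4, 61.8, 62.2, 63.8 and 61.4 FPKM in IgG1 libraries 1 to 5, against 48.2, 56.1, 52.6, 51.1 and 49.8 FPKM in IgM libraries 1 to 5. The difference of 0.29 on the log2 scale was the smallest among the H2A variants (SE 0.07, adjusted p = 0.00415). H2afj (chr6:136808244-136810074, plus strand), a gene for H2A.J, a variant close to the common H2A, was at 33.0, 32.1, 31.6, 36.4 and 38.6 FPKM in IgG1 libraries 1 to 5, against 25.5, 24.7, 24.4, 29.4 and 24.2 FPKM in IgM libraries 1 to 5. Again no IgM library reached an IgG1 one (log2 difference 0.41, SE 0.10, adjusted p = 0.00312). These 5 calls held in all 23 alternative settings, H2afz with log2 differences between 1.08 and 1.18. That of H2afx was 0.29 with length and GC trends removed, with an adjusted p of 0.00785.

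The H3.3 genes and H1f0 overlapped between the groups. H3f3b (chr11:116021912-116027962, minus strand), the most abundant member, was at 596, 649, 628, 651 and 692 FPKM in IgG1 libraries 1 to 5, against 557, 569, 544, 570.1 and 663 FPKM in IgM libraries 1 to 5. H3f3a (chr1:180800832-180813943, minus strand), which encodes the same protein, was at 182, 215, 199, 229.8 and 249 FPKM in IgG1 libraries 1 to 5, against 164, 174, 210.2, 203 and 184 FPKM in IgM libraries 1 to 5. Only H3f3b passed, with a difference of 0.15 (SE 0.05, adjusted p = 0.0377), and H3f3a did not (log2 difference 0.20, SE 0.08, adjusted p = 0.0726). Their sum was 858 ± 60.5 FPKM in IgG1 libraries and 768 ± 48.2 FPKM in IgM libraries, a ratio of 1.12. Both results hang on single libraries. That of H3f3b was lost without IgG1 replicate 2 (adjusted p = 0.0706), 4 (0.0620) or 5 (0.102), and without IgM replicate 1 (0.0824), 2 (0.0745), 3 (0.0906) or 4 (0.0751). It was also lost with no filter (0.163), with a common total without immunoglobulin genes (0.0700), without limma's trend and robust settings (0.174), and without IgG1 replicates 4 and 5 (0.189). With length and GC trends removed its difference was 0.33 instead (adjusted p = 0.000101). H3f3a, in turn, passed without IgG1 replicate 1 (adjusted p = 0.0197) or IgM replicate 3 (0.0363), with length and GC trends removed (0.000452) and with median-ratio scaling (0.0370). Its difference was 0.40 with those trends removed and 0.09 without IgG1 replicates 4 and 5 (adjusted p = 0.438). H1f0 (chr15:79028450-79030504, plus strand), a linker histone gene typical of cells that have stopped dividing, was at 123, 147, 132, 143 and 142 FPKM in IgG1 libraries 1 to 5, against 153, 156, 139, 137 and 142 FPKM in IgM libraries 1 to 5. Its groups were intermixed (log2 difference -0.08, SE 0.06, adjusted p = 0.339).

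H2afz made up a larger share of the variants in IgG1 cells. Over all 15 variant members the summed FPKM was 1884 ± 97.5 FPKM in IgG1 libraries and 1405 ± 58.6 FPKM in IgM libraries, without overlap. H2afz was 31.6 ± 1.34% in IgG1 libraries and 19.5 ± 1.18% in IgM libraries of this sum. Without it the rest came to 1289.8 ± 77.0 FPKM in IgG1 libraries and 1131 ± 52.2 FPKM in IgM libraries, and the groups overlapped. No test was run on sums or shares over members.

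The stem-loop that marks replication-dependent mRNAs was read from the GRCm38 sequence of the longest coding transcript of each of the 80 members. It was searched as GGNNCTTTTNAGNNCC on the transcript strand after the stop codon. It was found in 41 of 65 replication-dependent members, 21 to 58 bases after the stop codon, and in 1 of 15 variants, H2afx. Of 20884 protein-coding genes with enough annotated sequence there, 46 or 0.2203% held it within 100 bases. The models of 15 replication-dependent members have fewer than 16 bases after the stop codon, too few to show one. The most common form, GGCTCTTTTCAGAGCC, was held by 23 members, and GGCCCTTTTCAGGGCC by 7, all of them H4 genes. The sequences below, 5′ to 3′ with the stem-loop in capitals, are examples from members in which the search found the element. The searched pattern fixes most of its letters, so the likeness of these examples was largely set by the search. The first 5 are called replication-dependent members, the next 3 are members that were not called, and the last is the variant H2afx.
Hist1h2ap: aaaaaGGCTCTTTTCAGAGCCatc
Hist1h2ao: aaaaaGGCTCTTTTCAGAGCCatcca
Hist3h2ba: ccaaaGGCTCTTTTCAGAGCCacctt
Hist1h4i: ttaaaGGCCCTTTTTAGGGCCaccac
Hist1h4h: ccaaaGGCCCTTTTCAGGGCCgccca
Hist1h1c: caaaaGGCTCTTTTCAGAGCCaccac
Hist1h2ae: acaaaGGCTCTTTTCAGAGCCattca
Hist3h2a: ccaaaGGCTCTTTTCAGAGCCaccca
H2afx: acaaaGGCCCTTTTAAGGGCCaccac
In GRCm38 the capitals lie at chr13:21833029-21833044 for Hist1h2ap, chr13:22040966-22040981 for Hist1h4i (both minus strand), chr11:58949349-58949364 for Hist3h2ba and chr9:44335240-44335255 for H2afx (both plus strand). The model of Hist1h2ap ends 3 bases after the element.

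**Figure D3:**
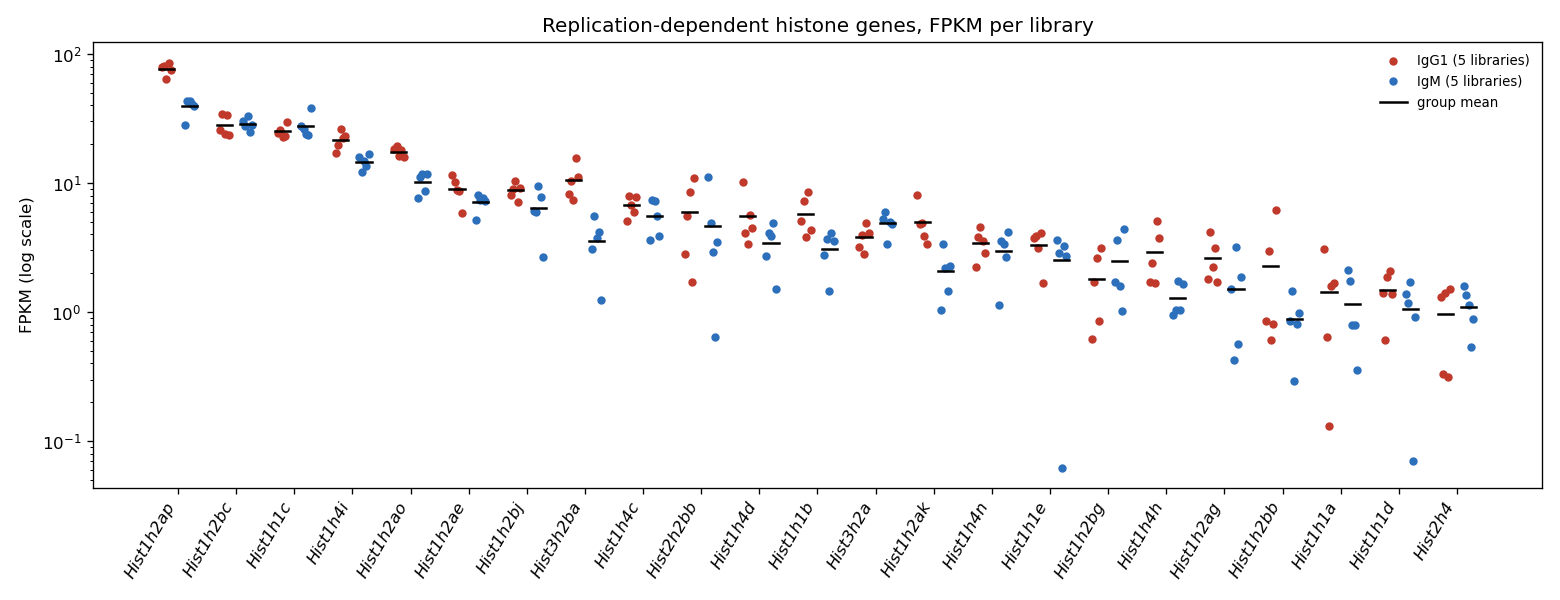
FPKM of the 23 tested replication-dependent histone genes on a log axis, ordered by mean, 1 point per library, IgG1 left of IgM, with group means as black bars. Hist1h2ap and Hist1h2ao separate the groups at high levels, whereas Hist1h2bc and Hist1h1c, of similar abundance, do not.

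Among replication-dependent members, 7 of 23 tested were higher in IgG1 cells and 0 lower, beside 18.1% and 20.2% of all tested genes. Their median log2 difference was 0.43, against 0.20 with a pseudocount of 5 and 0.12 over 64 members with no filter. Over all genes the median was -0.03 with either of those settings. With a mean of at least 5 FPKM asked for, 10 were tested and 4 called higher, beside 1714 called higher of all 6865 genes tested with that filter. Summed over all 65 the level was 267 ± 16.8 FPKM in IgG1 libraries and 191 ± 11.7 FPKM in IgM libraries, 1.40 times as much, without overlap. The variants' sum differed by a ratio of 1.34. Replication-dependent genes made up 12.4 ± 0.410% in IgG1 libraries and 12.0 ± 0.472% in IgM libraries of all histone FPKM, with overlap. Those percentages are of the RNA that a kit for mRNA captured, and replication-dependent mRNAs lack a poly(A) tail as a rule. Among tested members 30.4% of replication-dependent and 75.0% of variant genes were called. The difference between these shares was not tested, and the replication-dependent genes were measured at far lower levels.

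The H2A genes led this class. Summed FPKM of its H2A genes ran 105 to 131 FPKM in IgG1 libraries, against 54.6 to 75.7 FPKM in IgM libraries. Among them, 3 of 6 tested were called, beside 18.1% called higher over all tested genes. The calls of Hist1h2ap and Hist1h2ao are not independent, because their gene models are near copies. Hist1h2ap (chr13:21833026-21833507, minus strand) was the most abundant, at 79.2, 81.1, 64.2, 85.7 and 75.0 FPKM in IgG1 libraries 1 to 5, against 28.3, 43.3, 43.5, 41.2 and 39.8 FPKM in IgM libraries 1 to 5. Its groups were far apart, with means of 77.0 ± 8.16 FPKM in IgG1 cells and 39.2 ± 6.30 FPKM in IgM cells (n = 5 each, ± SD) and a log2 difference of 0.97 (SE 0.11, adjusted p = 2.39e-06). Hist1h2ao (chr13:21810465-21810944, plus strand) was at 18.4, 19.3, 16.3, 17.9 and 15.8 FPKM in IgG1 libraries 1 to 5, against 7.63, 11.1, 11.7, 8.67 and 11.7 FPKM in IgM libraries 1 to 5. It moved like Hist1h2ap (log2 difference 0.75, SE 0.14, adjusted p = 0.000396), but the gene models of this pair are near copies. Of the 50-base windows of Hist1h2ap, 93.1% also occur in Hist1h2ao, so how the authors' tools split reads between them sets each value. At least 1 window of each is shared with 48 genes. The sum of the pair was 94.6 ± 9.21 FPKM in IgG1 libraries and 49.4 ± 7.83 FPKM in IgM libraries, without overlap. Without both, the class sum was 173 ± 10.7 FPKM in IgG1 libraries and 142 ± 8.09 FPKM in IgM libraries, again without overlap and with a ratio of 1.22. Hist1h2ap was 28.8 ± 1.90% in IgG1 libraries and 20.5 ± 2.86% in IgM libraries of the class sum.

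The third called H2A gene of this class was low. Hist1h2ak (chr13:21753435-21753827, minus strand) was at 8.08, 4.79, 4.89, 3.89 and 3.38 FPKM in IgG1 libraries 1 to 5, against 1.04, 3.37, 2.19, 1.46 and 2.27 FPKM in IgM libraries 1 to 5. The groups came close but did not overlap (log2 difference 0.97, SE 0.24, adjusted p = 0.00417), with an estimated 21 to 42 fragments per IgG1 library and 5 to 19 per IgM library behind these values. Its difference was 0.49 with a pseudocount of 5, and 57.0% of its windows also occur in other genes. Hist1h2ae (chr13:23570517-23571220, minus strand) was at 11.5, 10.1, 8.83, 8.67 and 5.84 FPKM in IgG1 libraries 1 to 5, against 5.13, 8.10, 7.35, 7.67 and 7.29 FPKM in IgM libraries 1 to 5. Its groups overlapped, and it did not pass (log2 difference 0.29, SE 0.18, adjusted p = 0.223). Hist1h2ag had 2.61 FPKM in IgG1 cells against 1.51 FPKM in IgM cells (log2 difference 0.59, SE 0.30, adjusted p = 0.124), and passed without IgM replicate 3 (adjusted p = 0.0343) and with quantile normalization (0.0395). Its difference was 0.99 with a pseudocount of 0.1 and 0.23 with one of 5. Hist3h2a had 3.79 FPKM in IgG1 cells against 4.90 FPKM in IgM cells (log2 difference -0.30, SE 0.19, adjusted p = 0.229), and 31.5% of its windows lie in Trim17, which overlaps it on the same strand.

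Of the H2B genes, 1 of 6 tested was called, or 16.7%, near the 18.1% called higher over all tested genes. Hist3h2ba (chr11:58948920-58949533, plus strand), which lies in the small cluster on chromosome 11, was at 8.15, 10.3, 7.40, 15.7 and 11.2 FPKM in IgG1 libraries 1 to 5, against 3.07, 5.59, 3.73, 4.16 and 1.24 FPKM in IgM libraries 1 to 5. Every IgG1 library was above every IgM library, with means of 10.5 ± 3.25 FPKM in IgG1 cells and 3.56 ± 1.59 FPKM in IgM cells (n = 5 each, ± SD) and a log2 difference of 1.38 (SE 0.26, adjusted p = 0.000379). This was the largest log2 difference among members with a pseudocount of 1. With a pseudocount of 5 it was 0.86, below H2afz at 1.10 and Hist1h2ap at 0.90. An estimated 90 to 220 fragments per IgG1 library and 14 to 67 per IgM library lay behind the values of Hist3h2ba. The windows it shares, 22.1%, all lie in the pseudogene Hist3h2bb-ps. Hist1h2bc (chr13:23684199-23692908, plus strand), the most abundant H2B gene, was at 26.0, 34.3, 23.9, 33.6 and 23.7 FPKM in IgG1 libraries 1 to 5, against 30.3, 27.5, 33.0, 25.0 and 28.0 FPKM in IgM libraries 1 to 5. The groups were intermixed, and the difference took either sign among the alternative settings (log2 difference -0.03, SE 0.12, adjusted p = 0.849). Hist1h2bj had 8.77 FPKM in IgG1 cells against 6.39 FPKM in IgM cells (log2 difference 0.48, SE 0.23, adjusted p = 0.109), and passed without IgM replicate 3 (adjusted p = 0.0383) and with quantile normalization (0.0394). Without IgM replicate 5, its lowest value, the difference was 0.24 (adjusted p = 0.303), and with a pseudocount of 5 it was 0.30. The other tested H2B genes, Hist2h2bb, Hist1h2bb and Hist1h2bg, had log2 differences of 0.38, 0.57 and -0.31, none past the test. The summed H2B level ran 48.0 to 67.9 FPKM in IgG1 libraries, against 42.6 to 56.5 FPKM in IgM libraries, with overlap.

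Of the H4 genes, 2 of 6 tested were called, or 33.3%, beside 18.1% called higher over all tested genes. Hist1h4i (chr13:22040636-22041362, minus strand) was at 17.0, 19.8, 26.4, 22.4 and 23.1 FPKM in IgG1 libraries 1 to 5, against 16.0, 12.1, 14.8, 13.5 and 16.7 FPKM in IgM libraries 1 to 5. The lowest IgG1 value lay just above the highest IgM value (log2 difference 0.53, SE 0.13, adjusted p = 0.00437). Hist1h4h (chr13:23531050-23531519, plus strand) was at 1.72, 2.40, 1.67, 5.03 and 3.73 FPKM in IgG1 libraries 1 to 5, against 0.941, 1.03, 1.74, 1.04 and 1.65 FPKM in IgM libraries 1 to 5. The groups overlapped, and the call (log2 difference 0.72, SE 0.25, adjusted p = 0.0328) leant on IgG1 replicates 4 and 5, its highest values. It was lost without IgG1 replicate 4 (adjusted p = 0.104) or 5 (0.0819), without IgM replicate 1 (0.0683), 2 (0.0650) or 4 (0.0652), and with no filter (0.119). Without both IgG1 replicates 4 and 5 the difference was 0.37 (adjusted p = 0.313), and with a pseudocount of 5 it was 0.32. Hist1h4c, Hist1h4d, Hist1h4n and Hist2h4 had log2 differences of 0.27, 0.55, 0.18 and -0.13 and were not called. Hist1h4d passed with quantile normalization (adjusted p = 0.0369), and its difference was 0.33 without IgG1 replicate 1 (adjusted p = 0.317) and 0.36 without IgM replicate 5 (0.295). The H4 sum ran 39.2 to 46.3 FPKM in IgG1 libraries, against 27.7 to 34.8 FPKM in IgM libraries, without overlap.

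The H1 genes of this class encode linker histones, and 1 of 5 tested was called, a share of 20.0% near the 18.1% called higher over all tested genes. Hist1h1b (chr13:21779883-21780625, minus strand) was at 5.11, 7.21, 3.81, 8.46 and 4.36 FPKM in IgG1 libraries 1 to 5, against 2.79, 3.66, 1.45, 4.08 and 3.54 FPKM in IgM libraries 1 to 5. The groups overlapped (log2 difference 0.72, SE 0.24, adjusted p = 0.0230). This call was lost without IgG1 replicate 2 (adjusted p = 0.0611) or 4 (0.0709), without IgM replicate 3 (0.0647), without IgG1 replicates 4 and 5 together (0.0839) and with no filter (0.120), and with a pseudocount of 5 the difference was 0.40. None of its windows occur in another gene. Hist1h1c (chr13:23738808-23740367, plus strand), the most abundant H1 gene of the class, was at 24.3, 25.9, 22.7, 23.2 and 29.8 FPKM in IgG1 libraries 1 to 5, against 27.5, 26.0, 23.9, 23.8 and 38.0 FPKM in IgM libraries 1 to 5. It showed no separation of the groups (log2 difference -0.12, SE 0.13, adjusted p = 0.469). Hist1h1e, Hist1h1d and Hist1h1a had differences of 0.43, 0.30 and 0.10 and were not called. The H1 sum of this class was 37.2 ± 3.14 FPKM in IgG1 libraries and 35.7 ± 6.62 FPKM in IgM libraries, with overlap.

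No replication-dependent H3 gene reached the mean of 1 FPKM, 0 of 12. Together these 12 genes summed 3.48 to 5.23 FPKM in IgG1 libraries, against 2.96 to 7.34 FPKM in IgM libraries, with overlap. H3f3a and H3f3b, the H3.3 genes, were at far higher FPKM. Replication-dependent mRNAs lack a poly(A) tail as a rule, and the kit was one for mRNA. Of the 50-base windows of the 12 genes, 24.8% to 100% also occur in other genes. The part of capture or of read assignment in this gap was not tested.

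**Figure D4:**
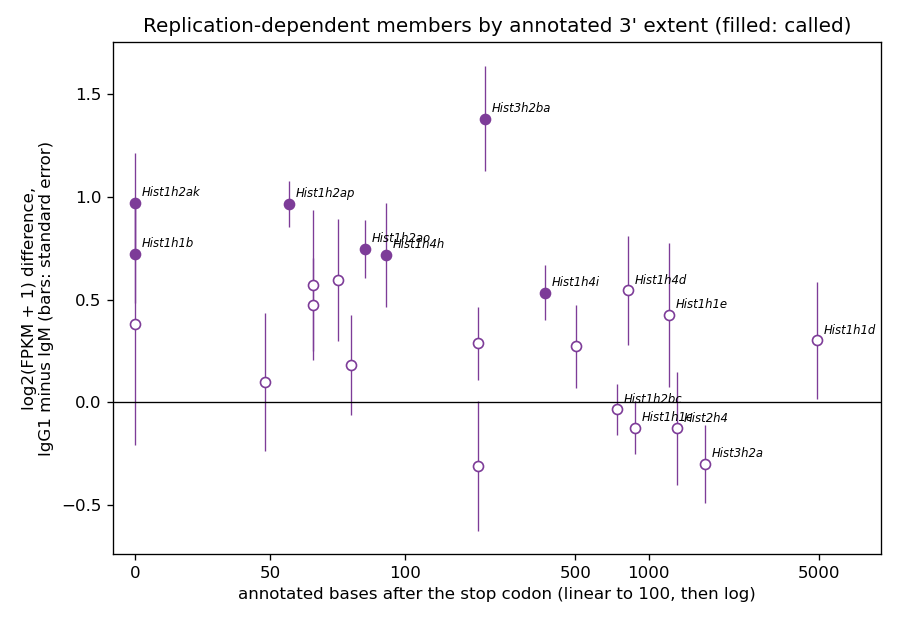
Log2(FPKM + 1) difference, IgG1 minus IgM, with its standard error, of the 23 tested replication-dependent members, against the annotated bases after the stop codon (linear up to 100 bases, then log). Filled points are called members, and all 7 lie at 376 bases or less.

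The called replication-dependent members had short annotated 3′ ends. The 7 of them had 0 to 376 bases annotated after the stop codon, with a median of 85.0. The 16 that were not called had 0 to 4931, with a median of 351.5. Of 8 tested members with over 400 bases there, among them Hist1h2bc, Hist1h1c, Hist3h2a and Hist1h1d, 0 were called, and their median log2 difference was 0.12. Of the 15 with fewer, 7 were called and the median was 0.57. This limit of 400 bases was set after the values were seen, so the split is a description without a test. The stem-loop was found in 5 of the 7 called members and in 13 of the 16 others. Both Hist1h2ak and Hist1h1b, which lack it, have models that end at the stop codon. Exons of another gene overlap 8 of the 23 tested replication-dependent and 5 of the 8 tested variant members, 7 and 5 of them on the opposite strand, and the kit does not keep strand. FPKM is scaled by the length of the gene model, and median lengths were 704 bases for tested replication-dependent members, 1943 for tested variants and 3092 for all tested genes.

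Promoters were compared between the classes. RefSeq sequences (GRCm38.p6) covering 250 bases before and 50 after the start matched 74 members, 60 replication-dependent and 14 variant. The motifs were CCAAT, bound by NF-Y, TATAAA, the TATA box, TTTNGCGC, an E2F site, and ATTTGCAT, the octamer bound by Oct-1, each on both strands, and none of these runs of letters contains another. CCAAT was present in 85.0% of replication-dependent, 71.4% of variant and 37.4% of all 32851 promoters. TATAAA was present in 58.3% of replication-dependent, 7.14% of variant and 13.6% of all promoters. The E2F motif was present in 21.7% of replication-dependent and 1.38% of all promoters and in 0 variant ones. The octamer was present in 20.0% of replication-dependent, 7.14% of variant and 1.74% of all promoters. Promoters of some neighbouring H2A and H2B genes overlap on opposite strands, such as Hist1h2ag with Hist1h2bj and Hist1h2ae with Hist1h2bg. A site in such an overlap counts for both genes, so the promoters are not all separate sequences. The promoters of a called gene each of the H2A variants, the replication-dependent H2A and the H2B genes are shown 5′ to 3′ with motif matches in capitals.
H2afz: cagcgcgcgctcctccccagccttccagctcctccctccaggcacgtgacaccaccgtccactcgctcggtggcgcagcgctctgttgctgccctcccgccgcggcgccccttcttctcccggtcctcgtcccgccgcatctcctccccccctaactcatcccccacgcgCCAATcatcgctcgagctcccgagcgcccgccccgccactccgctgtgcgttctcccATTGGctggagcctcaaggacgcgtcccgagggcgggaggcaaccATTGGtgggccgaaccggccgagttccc
Hist1h2ap: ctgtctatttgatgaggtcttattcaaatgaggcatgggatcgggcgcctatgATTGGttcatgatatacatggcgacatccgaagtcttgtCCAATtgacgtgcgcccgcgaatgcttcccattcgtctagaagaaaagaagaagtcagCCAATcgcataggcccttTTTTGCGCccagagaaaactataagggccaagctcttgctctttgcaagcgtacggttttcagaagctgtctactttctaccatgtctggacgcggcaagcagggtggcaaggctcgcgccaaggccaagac
Hist3h2ba: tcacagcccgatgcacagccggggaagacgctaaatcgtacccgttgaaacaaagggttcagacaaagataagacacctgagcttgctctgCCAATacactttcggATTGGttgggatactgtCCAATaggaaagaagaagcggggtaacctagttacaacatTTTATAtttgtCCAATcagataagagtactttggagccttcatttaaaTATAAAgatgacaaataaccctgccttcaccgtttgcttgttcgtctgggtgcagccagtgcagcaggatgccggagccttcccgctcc
They lie at chr3:137864237-137864536, plus strand, for H2afz, at chr13:21833426-21833725, minus strand, for Hist1h2ap, and at chr11:58948661-58948960, plus strand, for Hist3h2ba. In H2afz the capitals are matches to CCAAT, or to ATTGG on the other strand. In Hist1h2ap they are CCAAT matches and 1 E2F motif, and in Hist3h2ba CCAAT matches and 2 matches to TATAAA, 1 on each strand. A match is a run of letters and does not show that a factor binds.

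**Figure D5:**
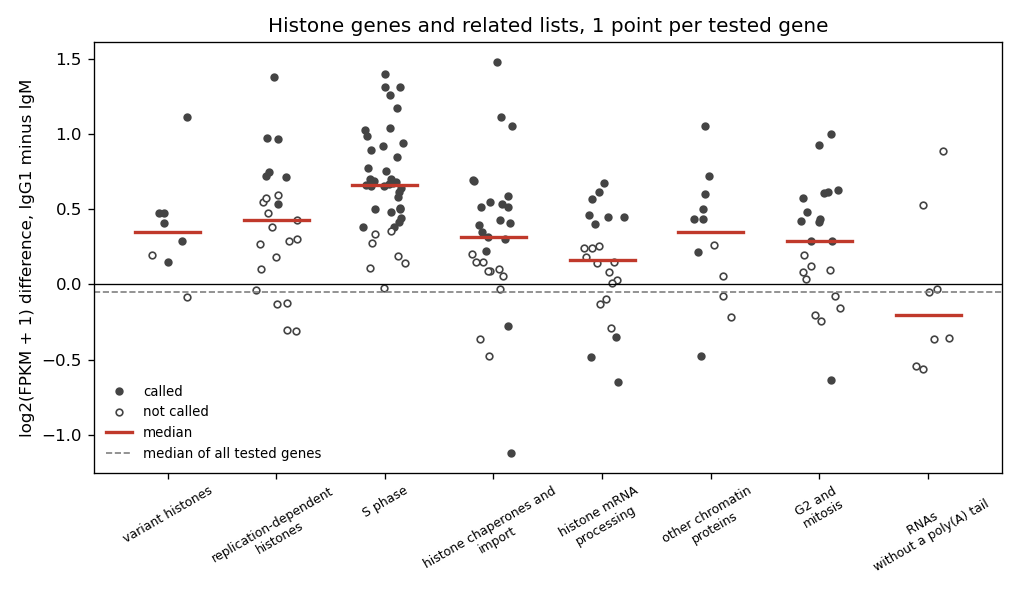
Log2(FPKM + 1) difference, IgG1 minus IgM, of each tested gene of the histone classes and of 6 related lists, with filled points called and red bars marking medians. The S phase list has the highest median, 0.66, and the RNAs without a poly(A) tail, none of them called, the lowest, -0.20.

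Genes that act on histones or in S phase were counted by list in the same fit, against the 18.1% higher and 20.2% lower of all tested genes. The list of histone mRNA processing also held regulators of transcription, E2f1, Npat, Yy1 and Pou2f1. Of its 22 tested genes, 7 were higher in IgG1 cells, E2f1 among them, and 3 lower (median 0.17). The smallest p among these belonged to Slbp, which encodes the stem-loop binding protein, at 139, 168, 165, 147 and 162 FPKM in IgG1 libraries 1 to 5, against 86.2, 105, 96.5, 116 and 106 FPKM in IgM libraries 1 to 5. All IgG1 values exceeded all IgM values (log2 difference 0.61, SE 0.08, adjusted p = 8.33e-06). Cstf2, a cleavage factor subunit, Ncbp2, a cap-binding subunit, and Coil, the marker protein of Cajal bodies, had differences of 0.45, 0.40 and 0.68. Lower in IgG1 cells were Tut7, an enzyme that adds uridines to RNA ends (-0.65), Paf1, a subunit of a transcription elongation complex (-0.35), and Casp8ap2, also named FLASH, a factor of histone mRNA 3′ end processing (-0.48).

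Of 29 tested chaperone and import genes, which carry histones to and from DNA, 17 were higher and 2 lower (median 0.31). The nucleophosmin chaperone Npm1 was at 217 FPKM in IgG1 cells against 148 FPKM in IgM cells (log2 difference 0.55, adjusted p = 7.3e-06), and its relative Npm3 at 22.8 FPKM in IgG1 cells against 7.33 FPKM in IgM cells (log2 difference 1.48, adjusted p = 7.95e-06). Asf1b, which hands over newly made H3 and H4, was at 87.5 FPKM in IgG1 cells against 54.1 FPKM in IgM cells (log2 difference 0.69, adjusted p = 8.86e-06), and Chaf1a, a subunit of the CAF-1 chaperone of replication forks, at 17.9 FPKM in IgG1 cells against 7.85 FPKM in IgM cells (log2 difference 1.12, adjusted p = 2.17e-05). Atrx, which deposits H3.3 with Daxx, went the other way, at 19.3 FPKM in IgG1 cells against 42.7 FPKM in IgM cells (log2 difference -1.12, adjusted p = 1.02e-06). Daxx itself was higher, at 23.3 FPKM in IgG1 cells against 17.3 FPKM in IgM cells (log2 difference 0.40, adjusted p = 0.0164). Hjurp, the chaperone of centromeric H3, was lower, at 36.8 FPKM in IgG1 cells against 44.8 FPKM in IgM cells (log2 difference -0.28, adjusted p = 0.0156).

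Of 41 S phase genes, with Slbp among them, 34 were higher in IgG1 cells and 0 lower. Their median log2 difference was 0.66. Examples are Rrm2, a subunit of ribonucleotide reductase (445 FPKM in IgG1 cells against 261 FPKM in IgM cells, log2 difference 0.77, adjusted p = 1.61e-08), the replicative helicase subunits Mcm7 (80.4 FPKM in IgG1 cells against 38.6 FPKM in IgM cells) and Mcm5 (91.3 FPKM in IgG1 cells against 37.7 FPKM in IgM cells), and Dnmt1, which maintains DNA methylation (48.5 FPKM in IgG1 cells against 20.9 FPKM in IgM cells). Of 22 genes of G2 and mitosis, 12 were higher and 1 lower (median 0.29). Plk1, Birc5, Ccna2 and Cdk1, all needed for cell division, differed by 1.00, 0.61, 0.63 and 0.62, and Cenpf, a kinetochore gene, by -0.63. Of 12 other chromatin protein genes, 7 were higher and 1 lower (median 0.35), high mobility group genes among them, with Hmga1 at 169 FPKM in IgG1 cells against 81.1 FPKM in IgM cells (log2 difference 1.05, adjusted p = 7.43e-09), Hmgn2 at 486 FPKM in IgG1 cells against 295 FPKM in IgM cells, Hmgb2 at 201 FPKM in IgG1 cells against 132 FPKM in IgM cells and Hmgn1 at 98.2 FPKM in IgG1 cells against 72.5 FPKM in IgM cells on the higher side and Hmgn3 (-0.48) on the other.

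The libraries were made with a kit for mRNA, so the level of a stem-loop mRNA is that of the RNA the kit captured. As a comparison, 8 of 14 listed RNAs without a poly(A) tail were tested, 0 were called, and 0 passed at an unadjusted p under 0.05. Several of these 8 were at 0 in most libraries, and standard errors ran up to 1.31 on the log2 scale. The lack of calls therefore carries little weight. The highest by mean were Rny1, at 0 in 8 libraries, and Rpph1, the RNA of RNase P, at 6.05, 6.59, 8.06, 6.53 and 1.67 FPKM in IgG1 libraries 1 to 5, against 3.30, 7.23, 2.48, 2.73 and 2.43 FPKM in IgM libraries 1 to 5. Their groups overlapped (log2 difference 0.53, adjusted p = 0.217 for Rpph1). The part that capture of such RNA has in the histone values was not tested.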

How the data were processed

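Total RNA came from the miRNeasy Micro kit, and cDNA was made with Takara chemistry (SMART-Seq mRNA HT LP), per the labels' protocols. The tools named are Cuffdiff, Cufflinks 2.2.1 and HISAT2 2.1.0, on GRCm38, per the submitters' processing notes. Annotation release, read length and any scaling between libraries were not stated there. Each deposited file gives FPKM per gene of a single library, per the file headers, and FPKM are not counts, so no count test was used.

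Of 47719 identifiers, 47305 matched GENCODE M21. The test took genes whose mean was 1 FPKM or more and ran on log2(FPKM + 1) with limma 3.58.1 in R 4.3.3 (trend and robust, group only, two-sided, all 10 libraries), with Benjamini-Hochberg adjustment over 9900 genes and a threshold of 0.05. Depth, and from it the fragments of a member, was estimated assuming 200-base fragments. Transcript length was counted there as the number of places where such a fragment can start. The depth estimate gives relative precision and no interval. Tables and plots used Python 3.11.15, pandas 2.3.3, numpy 2.4.6 and matplotlib 3.10.9.

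Members with a mean of at least 1 FPKM could be named. Values in every library are given for called members and for the 6 most abundant variant and replication-dependent ones, and of related lists up to 4 genes per direction by smallest p, or the 2 highest where none passed. Daxx was added as the partner of Atrx after its values were seen. E2f1, Npat, Yy1 and Pou2f1 were named to describe their list. Genes below the mean are named where they are at 0 throughout, chosen after their values were seen. The members and the gene lists were chosen with earlier results of these data known. Same-numbered libraries did not vary together (correlations -0.0357 to 0.0966), so no block was used. The labels give no batch. Part of the cell type markers is not reported here. Alternatives were other pseudocounts, filters, scalings and limma settings, a replicate block, and each library left out. Leaving out IgG1 replicates 4 and 5 together was chosen after the data were seen. The test and the depth estimate were tested on simulated data.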

Additional observations from a re-analysis of the deposited data

Results flagged for a closer look

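In 8 of 62 groups of 5 libraries, 1 library stood apart from the other four by more than Dixon's 95% critical value, which chance gives in about 1 of 20 groups. Among IgG1 libraries this was replicate 5 for H2afx, high at 120.5 FPKM. Among IgM libraries replicate 5 was high for H3f3b, at 663 FPKM, and for Hist1h1c, at 38.0 FPKM. IgM replicate 3 was high for H2afz, at 307 FPKM, and low for Hist1h1e, at 0.0624 FPKM, and IgM replicate 4 was high for H2afj, at 29.4 FPKM. IgM replicate 1 was low for Hist1h2ap, at 28.3 FPKM, and for Hist1h2ae, at 5.13 FPKM. The calls of H2afz, H2afx, H2afj and Hist1h2ap held without the library named. That of H3f3b also held without IgM replicate 5. Hist1h1c, Hist1h2ae and Hist1h1e were not called with or without it.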

How the results depend on the processing

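Over 23 alternative settings, 649 of 696 values of the 31 members kept their direction and their side of the threshold, 23 called ones no longer passed, 11 others passed, and 13 changed sign. No member was called lower in any setting. All values that changed sign belonged to members that were not called in any setting. For Hist1h2bc the log2 difference was 0.00250 with quantile normalization, 0.0818 with length and GC trends removed (with or without the block), 0.00289 with array weights, and with single libraries left out -0.107 to 0.0219, above 0 without IgG1 replicate 3 or 5 or IgM replicate 3. For Hist1h4n it was -0.0275 without IgM replicate 1 and up to 0.291 with others left out. Hist1h1a had -0.120 without IgG1 replicate 1, -0.0516 without IgM replicate 5, up to 0.340 with others left out, and -0.0713 without IgG1 replicates 4 and 5, and Hist2h4 had 0.133 with quantile normalization and 0.00431 without IgG1 replicate 4, down to -0.235 with others left out. With length and GC trends removed 1326 genes were called lower, and 1294 with the block added. With a mean of at least 5 FPKM, 4 replication-dependent members were called of 10 tested, beside 1714 genes called higher of all 6865 tested. With libraries left out singly, 5 to 8 replication-dependent and 5 to 7 variant members were called. With the replicate number as a block, 1749 genes were higher and 1952 lower, with 7 replication-dependent and 7 variant members, H3f3a being the addition (adjusted p = 0.0409, and 0.000350 with trends removed as well). Depth limits the low members: Hist1h2ak and Hist1h4h rest on few fragments per library. In IgM libraries so do Hist3h2ba, with an estimated 14 to 67 fragments per library, and Hist1h1b, with 25 to 62.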
